A study of Homo sapiens with 4 samples.

Results

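The CFTR locus held 4 of the 13661 BACH1 regions deposited for a pair of human airway epithelial cell lines. A region belonged to the locus when its summit, the base of highest signal, lay in hg19 chr7:116970000-117459000. This window of 489 kb spans the CFTR gene, taken as chr7:117120017-117308718 on the plus strand, with 150 kb on either side. The choice used position only and no measured strength. Of the 10246 regions listed for Calu3, 2 lay in the locus, and of the 3415 listed for 16HBE14o-, 2 did. Calu3 is a human lung adenocarcinoma line, and 16HBE14o- is a line of human bronchial epithelial cells. Both were grown in DMEM with fetal bovine serum, with no treatment given in the labels, and chromatin was precipitated with the same rabbit antibody against BACH1. Each line is a single cell line, and its 2 replicates were combined by the authors into 1 list of peaks by the irreproducible discovery rate (IDR). No value below therefore carries a replicate error. Whether a given peak was found in each of the replicates is not stated.

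CFTR encodes the chloride and bicarbonate channel of the apical membrane of epithelial cells, and its loss of function causes cystic fibrosis. Its promoter alone gives little cell-type selectivity. Distal elements, among them a pair of airway enhancers upstream of the gene and further enhancers in introns that act mainly in the intestine, are brought to the promoter within a domain bounded by CTCF sites. BACH1 is a basic leucine zipper factor of the CNC family that binds haem. It pairs with small MAF proteins on antioxidant response elements, where it represses genes such as HMOX1 (haem oxygenase) and competes with the activator NRF2. The study asked whether BACH1 also acts on CFTR.

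In Calu3 the BACH1 regions of the locus lay side by side just upstream of the CFTR start. In 16HBE14o- one region lay 44.3 kb upstream of the gene and the other 102 kb inside it. No region of one line overlapped a region of the other, so that the 4 regions marked 3 different places in the locus. All were of moderate or low strength within their lists.

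The sequence of the bound regions is not shown, since no hg19 genome was used here. To give the context of the Calu3 regions, the 250 bases before the CFTR start in RefSeq (GRCh38.p14 chr7:117479775-117480024, plus strand) are printed, with the letters TGAC, or GTCA on the opposite strand, in capitals because antioxidant response and AP-1 motifs begin with them.
CFTR promoter: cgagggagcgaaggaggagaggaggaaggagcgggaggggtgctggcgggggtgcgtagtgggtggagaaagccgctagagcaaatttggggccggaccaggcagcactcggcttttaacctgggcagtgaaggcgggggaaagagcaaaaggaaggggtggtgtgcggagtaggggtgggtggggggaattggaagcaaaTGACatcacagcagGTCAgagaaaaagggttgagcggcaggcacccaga
The stretch contained 2 such cores, starting 49 and 35 bases before the RefSeq start. Of 35116 RefSeq promoters of this length, 75.8% contained at least 1. Neither core was part of a longer motif searched on both strands. TGAC followed by any 3 bases and GC, the core of the antioxidant response element, had no match here and at least 1 match in 10.9% of the promoters. The AP-1 motif TGACTCA, which reads TGAGTCA on the opposite strand, had no match here and a match in 4.20% of them. TGACTCA followed by GC, an AP-1 motif extended towards a MAF recognition element, had none here and matched 0.456% of them. The motifs overlap, so the last is a subset of the 2 before it. The GC content was 61.2%, against a median of 58% over all promoters. On hg19, the Calu3 summits were 840 and 471 bp before the approximate CFTR start used for the peaks. The near edge of the nearer region was 223 bp before that hg19 start. The peaks and this sequence are on different builds and were not aligned. The hg19 start was not checked to be the same base as the RefSeq start, so these distances cannot be set against the printed stretch. Whether either Calu3 region reaches into it was not analysed here. The motif matches are therefore not a reading of the DNA at the Calu3 summits. The marking of the cores was chosen after the sequence was seen.

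**Figure D1:**
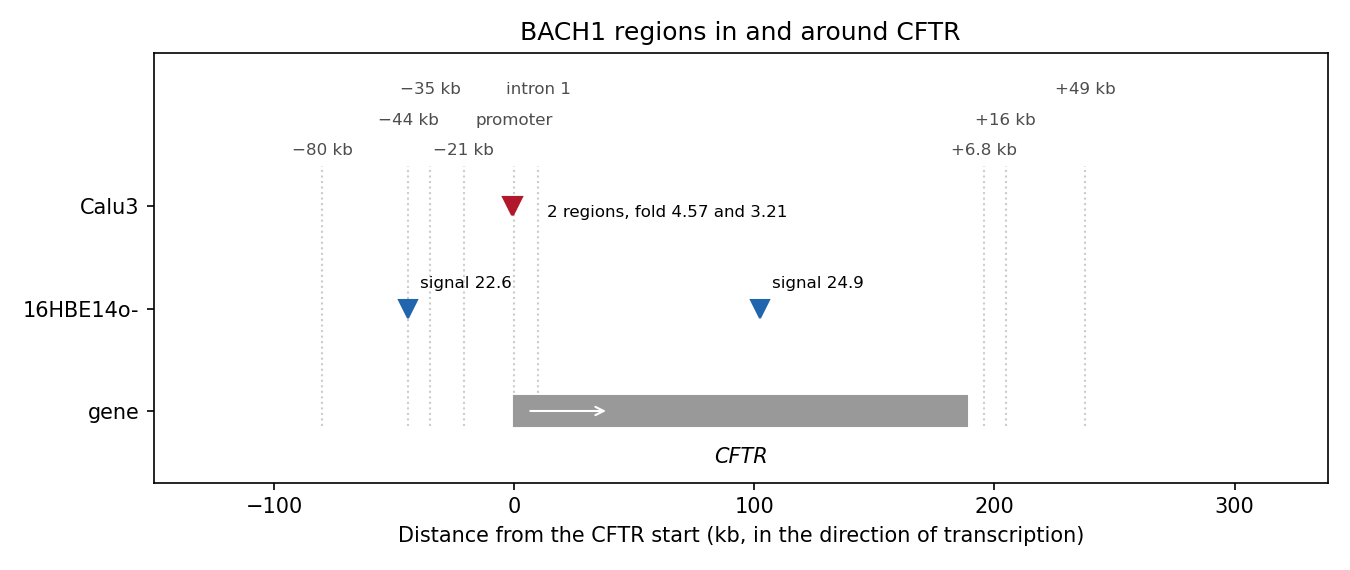
Summits of the 4 BACH1 regions by distance from the CFTR start (horizontal axis, kb), for Calu3 (red, top row) and 16HBE14o- (blue, middle row), above the gene (grey bar); dotted lines mark elements of the locus at their nominal distances. The Calu3 regions, drawn almost on top of each other, stand at the promoter, and those of 16HBE14o- stand 44.3 kb upstream and 102 kb inside the gene.

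At the promoter, the stronger Calu3 region covered chr7:117118902-117119310 (409 bp). Its summit was 840 bp before the CFTR start. The deposited fold enrichment was 4.57, which is 1.11 times the median of the Calu3 list (4.13) and placed it at rank 4367 of 10246, above 57.4% of the list. The authors' −log10 q was 4.44, equal to a q of 3.59e-05. It was thus a typical region of its list by strength, and the strongest Calu3 region of the genome, with a fold enrichment of 53.0, exceeded it 11.6 times.

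The weaker Calu3 region covered chr7:117119457-117119794 (338 bp), with its summit 471 bp before the start and its near edge 223 bp before it. The fold enrichment was 3.21, 0.776 times the list median, at rank 7525 and above 26.6% of the list. Its −log10 q was 1.11, equal to a q of 0.0783. Of the locus regions of Calu3, 1 of 2 therefore had a q under 0.05, against 73.3% of all Calu3 regions. With 2 regions this count cannot be set apart from that share. The fold enrichment of the stronger region was 1.43 times that of the weaker one, and no replicate values are at hand to say whether this exceeds the spread between replicates.

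The Calu3 regions were separated by 146 bases and reached together over 893 bp of upstream DNA. Their summits were 369 bp apart. Such closeness was uncommon in the list: 55 of the 10222 distances between neighbouring Calu3 regions of a chromosome were as short, and the median distance was 114 kb. The regions were also wide for this list, whose median width was 235 bp. The stronger one was wider than 91.1% of the list and the weaker one wider than 82.0%. The list gives them as separate rows, and whether they are parts of one broader stretch of binding was not tested.

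**Figure D2:**
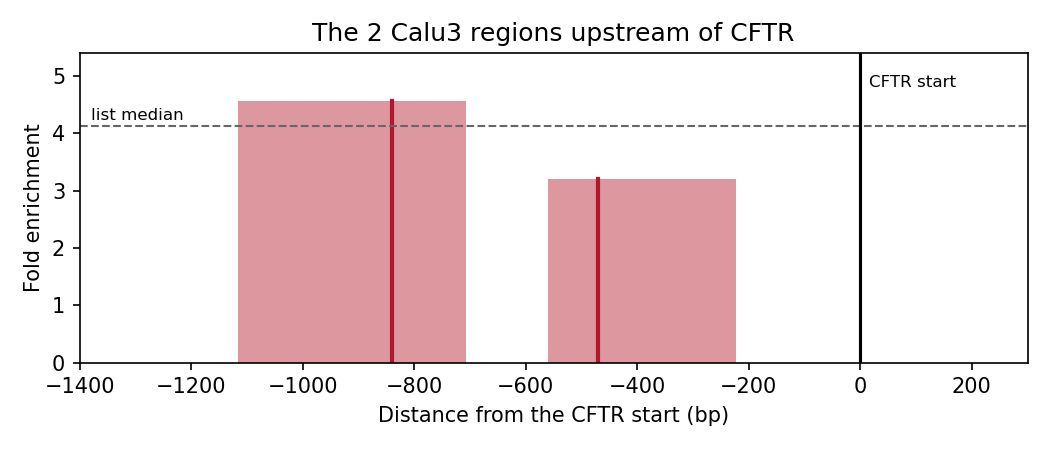
The Calu3 regions drawn to scale by distance from the CFTR start (horizontal axis, bp), with the deposited fold enrichment as bar height from 0 and a dark line at each summit; the dashed line is the median of all Calu3 regions, 4.13. The region farther from the gene reaches 4.57, above the median, and the nearer one 3.21, below it.

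In 16HBE14o- the upstream region covered chr7:117075623-117075862 (240 bp, the width of most rows of that list), with its summit 44.3 kb before the CFTR start. One of the airway enhancers of CFTR is known at 44 kb upstream, and the summit was 0.27 kb from that nominal position. The position is rounded to a whole kb, so an offset this small lies within its rounding. The peak signal, on a scale that the sources used here do not state, was 22.6, or 0.750 times the list median of 30.1. It ranked 2988 of 3415 and lay above 12.5% of the list. By the browser score, 553, it lay lower still, at rank 3330 and above 2.34% of the list. By the further score of the list, 0.906, its rank was 2990. It was among the weaker regions of 16HBE14o- by each of these 3 columns.

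The intragenic region of 16HBE14o- covered chr7:117222367-117222606 (240 bp), with its summit 102470 bp after the start, 54.3% of the way through the gene and 86.2 kb before its end. The peak signal was 24.9, which is 0.827 times the list median, at rank 2531 and above 25.9% of the list. By the browser score, 719, it ranked 2497, and by the further score, 1.20, it ranked 2528. Its signal was 1.10 times that of the upstream region, a difference with no replicate error. The exon or intron that holds it was not assigned, because no hg19 annotation was used here. The antisense RNA genes CFTR-AS1 and CFTR-AS2 also belong to this stretch of the chromosome in the RefSeq gene order, and their hg19 positions relative to the region were not analysed.

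**Figure D3:**
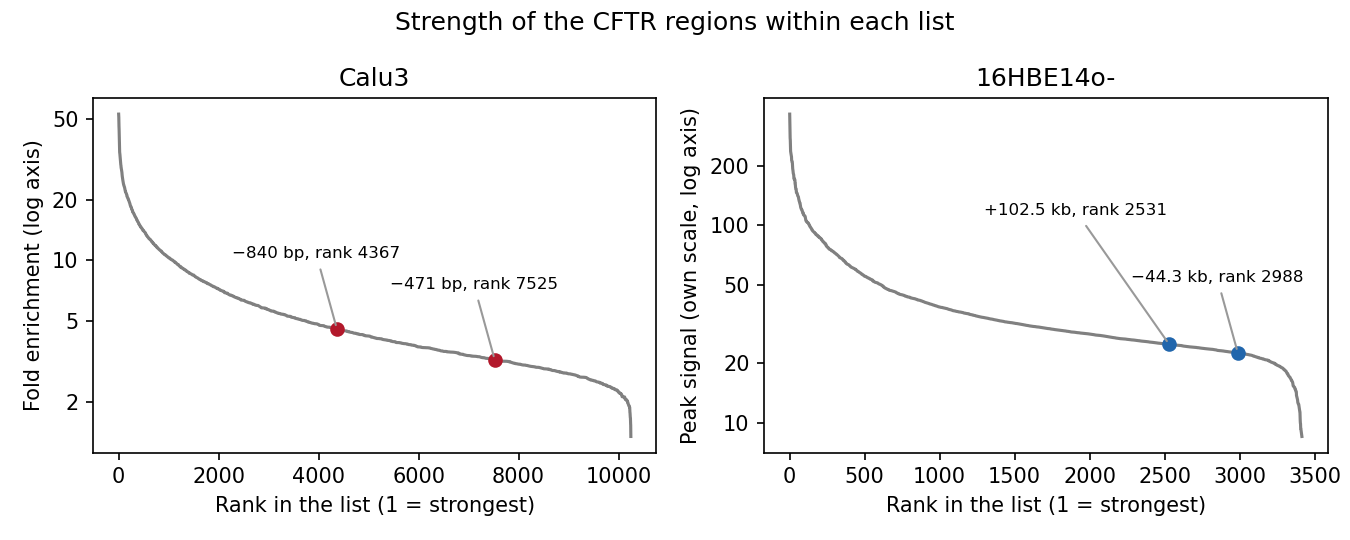
Deposited strength of every row of a list (vertical log axis; fold enrichment for Calu3 on the left, peak signal on its own scale for 16HBE14o- on the right) by rank in that list (horizontal axis), with the locus regions as dots labelled by distance from the CFTR start. The dots lie on the flat part of each curve, at ranks 4367 and 7525 in Calu3 and 2531 and 2988 in 16HBE14o-; the scales cannot be compared between the panels.

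Set beside 9 elements of the locus whose nominal distances are known from earlier work (a background list, given in rounded kb), the regions of the lists fell within 2 kb of 2. These were the promoter, with both Calu3 regions, and the upstream element at 44 kb, with 1 region of 16HBE14o-. The share of all regions of a list that lie within 2 kb of a gene start or enhancer was not computed. The count is therefore not shown to be particular to this locus. The second airway enhancer, at 35 kb upstream, had no region of either list within 2 kb. The nearest Calu3 summit was 34.2 kb from it and the nearest 16HBE14o- summit 9.27 kb. No region came within 2 kb of the CTCF-bound sites at 80 kb and 21 kb upstream, the enhancer in intron 1 at 10 kb, or the elements 6.8, 16 and 49 kb beyond the end of the gene. From the promoter, the nearest 16HBE14o- summit was that at 44.3 kb, and from the 44 kb element the nearest Calu3 summit was 43.2 kb away. The intragenic region of 16HBE14o- was near none of the 9. The intestinal enhancers deeper in the gene were not in the list, as their hg19 positions were not used here. A region missing from a list was not detected at a depth that is unknown, and is not shown to be absent.

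None of the Calu3 regions of the locus met a region of 16HBE14o-, against 15.3% of all Calu3 regions, and none of the 16HBE14o- regions met one of Calu3, against 46.5% of that list. Sharing was less frequent among regions as weak as these. In the tenth of the Calu3 list that holds the stronger promoter region, 8.68% were met (95% exact interval 7.03 to 10.6), and in that of the weaker one 5.76% (4.41 to 7.37). The corresponding shares in 16HBE14o- were 18.6% (14.6 to 23.1) for the upstream region and 26.8% (22.2 to 31.9) for the intragenic one. The intervals are Clopper-Pearson intervals and cover counting error over regions. With 2 regions a line, 0 shared regions cannot be told apart from these shares. The nearest regions of opposite lists in the locus were the stronger Calu3 region and the upstream 16HBE14o- region, 43.4 kb apart. Of all Calu3 regions, 28.2% had a region of 16HBE14o- closer than that, and of all 16HBE14o- regions 69.2% had one of Calu3.

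The locus held 0.0195% of the merged Calu3 regions (2 of 10246, 95% exact interval 0.00236 to 0.0705) and 0.0589% of those of 16HBE14o- (2 of 3393, 95% exact interval 0.00714 to 0.213), counted after rows that overlap were merged. The number of regions was the same in both lines, so the shares differ only through the lengths of the lists, and they say nothing of more or less BACH1 binding in either line. Per Mb the locus held 4.09 Calu3 regions, against 3.84 over chromosome 7 and 3.46 over all chromosomes, and 4.09 regions of 16HBE14o-, against 1.00 over chromosome 7 and 1.17 over all chromosomes. The chromosome values per Mb use the span from the first to the last region of a list on each chromosome. Each chromosome was also divided, from its first to its last summit in a list, into windows as long as the locus. In Calu3, 39.8% of 6069 windows held 2 or more regions, and in 16HBE14o- 12.6% of 5945 did. A pair of regions in such a stretch was thus common in Calu3 and less common, but not rare, in 16HBE14o-.

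Outside these places no region was listed for either line over 519 kb or more on each side of its locus regions. In Calu3 the nearest region on the ASZ1 side, chr7:116412551-116412703, was 707 kb from the promoter regions (fold enrichment 2.82, rank 8776, q = 0.323). On the CTTNBP2 side the nearest was chr7:117637957-117638238, 519 kb away and 329 kb beyond the end of CFTR (fold enrichment 5.74, rank 2963). These distances were longer than 90.5% and 85.6%, in that order, of those between neighbouring Calu3 regions. ASZ1, which encodes a germ-cell protein, and CTTNBP2, which encodes a cortactin-binding protein, are the protein-coding neighbours of CFTR in the RefSeq gene order. In 16HBE14o- the nearest region on the ASZ1 side, chr7:116105998-116106062, was 970 kb from the upstream region and far stronger (signal 146, rank 50), and it was also bound in Calu3. On the other side, chr7:117824088-117824327 lay 602 kb from the intragenic region (signal 15.3, rank 3360). These distances stood out less in their list: the first was longer than 79.4% and the second longer than 71.3% of those between neighbouring 16HBE14o- regions. The regions of 16HBE14o- in the locus were 147 kb apart, below the median distance of 217 kb between neighbours in that list.

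**Figure D4:**
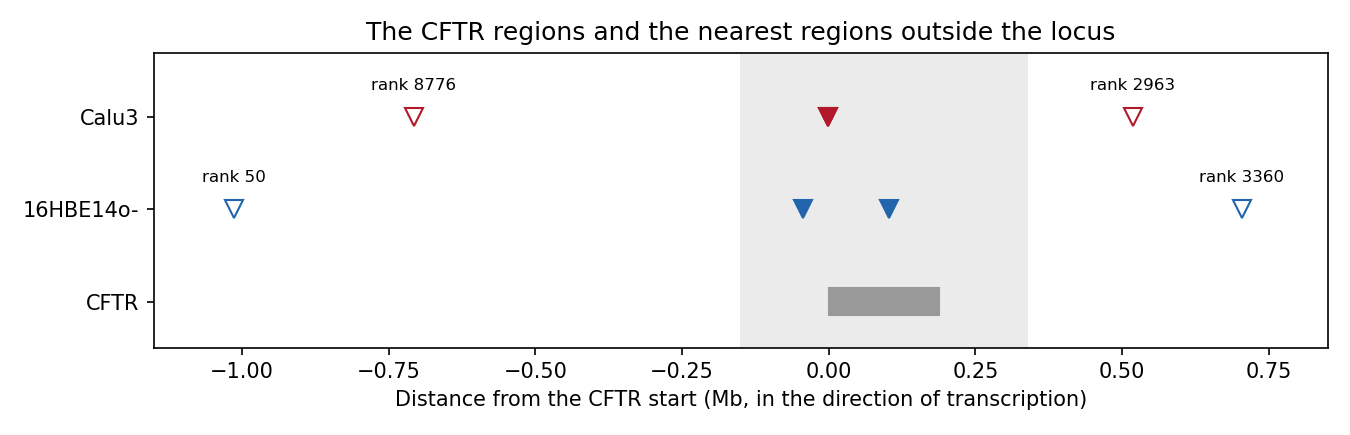
The locus regions (filled triangles) and, for each list, the nearest region outside the locus on either side (open triangles, with rank in the list) by distance from the CFTR start (horizontal axis, Mb); the shaded band is the locus and the grey bar the gene. Between the locus regions and the open triangles no further region was listed for that line, over 519 kb to 970 kb; regions beyond the open triangles are not drawn.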

How the data were processed

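BACH1 ChIP-seq peak lists of 2 human airway lines were used, 1 list per line, each made by the authors from 2 replicates by IDR, per the labels. Positions are on hg19, as named in the submitters' processing notes. The sources used here do not give the aligner, the peak caller, control libraries or read depth.

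The Calu3 list deposited by the authors gives a fold enrichment (a ratio, read as such from the format and values), a −log10 q and a browser score. The deposited 16HBE14o- list gives a signal per peak on an unstated scale, a browser score and another score that goes below 0. These are the authors' own values per peak and served only to rank rows within a list (rank 1 is the highest fold or signal). The lists differ in the kind of their scores and in row width, which varies in Calu3 and is 240 bp for most rows of 16HBE14o-. They may thus have been processed differently, so strengths were not compared between lines. How differing peak calling bears on the lengths of the lists and their overlap was not tested.

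All rows with a summit in the window were taken. For counts of sharing, density and distances, rows that overlapped were merged, and sharing needed at least 1 bp. A planned Fisher's exact test of the locus share between lines is not used, since regions of 1 pooled list are not replicates of a line. The finding of locus regions, overlaps, merging and ranks was tested on simulated lists with planted answers, of which 5 of 5 were recovered. CFTR's start and end are approximate hg19 positions, and known elements were matched within 2 kb. Every region of the locus is named, with the nearest outside it on each side. The members, lists and tests were chosen with earlier results of these data known. Motifs in the bound regions were not analysed here. Python 3.11.15, numpy 2.4.6, scipy 1.17.1, pandas 2.3.3 and matplotlib 3.10.9 were used.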

Additional observations from a re-analysis of the deposited data

How the results depend on the processing

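Of 31 values recomputed under the alternatives run, 27 kept their direction and, for counts and ranks, stayed within 1.5 times the reported value. Several of the 27 could not have changed, so this tally is no measure of robustness. With the lists at least 43.4 kb apart in the locus, stricter rules of sharing had to give 0. No locus region was made of merged rows, so counts without merging had to be equal. Tolerances of 1 and 3 kb to known elements also could not alter those counts. Keeping only Calu3 regions with a q under 0.05 left 1 Calu3 region in the locus. Keeping rows at or above the median strength of each list left 1 in Calu3 and 0 in 16HBE14o-, and gave a difference in locus share, Calu3 minus 16HBE14o-, of 0.0195 percentage points, against −0.0394 over the whole lists. By construction this leaves out the regions below the median, so the changed sign rests on counts of 1 and 0 and shows no difference between the lines. With a flank of 500 kb the count in Calu3 was 3. Ranking by the −log10 p of Calu3 and motif settings for the bound regions were not run. No paired analysis was possible because the replicates of a line were combined into 1 list before deposit; none could be blocked or left out. Read depth is unknown.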
